A study of Mus musculus with 2 samples.

Results

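The stem-cell heptad is a group of 7 transcription factors, Gata2, Tal1, Lyl1, Lmo2, Runx1, Fli1 and Erg, which are described here together with Hlf and Mecom, another pair of stem-cell factors. Members were chosen by gene name: every non-control probe whose gene name in the array files was one of the 9 symbols was taken. All 9 were on the array, with 15 probes of the 41165 compared and as 9 of 27337 named genes. The heptad factors bind together at regulatory elements of blood stem and progenitor cells, many of which control the heptad genes themselves. GATA2 binds GATA sites, TAL1 and LYL1 are basic helix-loop-helix factors that pair with E proteins on E-boxes, LMO2 bridges them through LDB1, RUNX1 binds DNA with CBFB, and FLI1 and ERG are ETS factors. HLF is a PAR bZIP factor of stem cells. MECOM encodes the zinc finger protein EVI1 and a longer MDS1-EVI1 form.

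The cells were female mouse acute myeloid leukaemia cells that carried MLL-AF9, a fusion oncogene marked by YFP. Bone marrow cells that carried YFP, c-Kit and Mac-1 were sorted, which the labels call leukemia-initiating cells. Both groups shared the fusion, the marker and the sort. They differed in genotype, Jam3-null on 1 array and Jam3-WT on the other. Jam3 codes for an adhesion protein of cell junctions. The label of each array names 3 mice, so the values are those of material from several animals on 1 array. How the mice were combined, the animals' age, and how Jam3 was deleted are not given in the sources used here. It was asked which transcripts differ between the genotypes.

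Each array was a 1-colour Agilent array on which 55.0% (Jam3-null) and 61.8% (WT) of 43379 non-control spots passed the scanner software's call of well above background, with a median processed signal of 49.3 and 51.6. Both were on 1 slide and in 1 scan. Jam3 itself had 2 probes (28.1 and 5.40 in Jam3-null cells, 5.09 and 3.23 in WT cells), all at background by the scanner software's call, so the genotypes are those of the labels. Of the genes of the sort, Kit had processed signals of 1237 (Jam3-null) and 1244 (WT), and Itgam, which encodes a chain of Mac-1, had 3703 and 302. Ptprc, the pan-leukocyte gene CD45, had a log2 difference of 0.61. With 1 array per genotype there is no spread between samples, no difference has a replicate check, and no p-value is given. Precision is limited by the number of arrays. A log2 difference is the Jam3-null value minus the WT value, each array having been divided by its 75th percentile. The SD beside it comes from the scanner software's error model and covers measurement on the array only; for bright spots that error is close to 10% of the signal. At least 2-fold apart is used as a descriptive threshold.

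Of the 9 genes, 7 were well above background on both arrays (52.5% of all genes were), Mecom was seen in Jam3-null cells only (1.79%), and Tal1 was seen on neither (36.7%); no member was seen on the WT array only (8.99%). Gata2 and Hlf were lower on the Jam3-null array, Runx1 was higher by 1 of its 2 probes, Fli1 was higher by less than 2-fold, and Lyl1, Lmo2 and the first Erg probe were within 2 error-model SDs of 0. So 2 of the 7 measured members were at least 2-fold lower, where 8.59% of the 14361 genes measured on both arrays were, and 1 of 7 was at least 2-fold higher, where 10.3% were. In either direction it was 3 of 7 members against 18.8% of genes, and by any amount 3 of 7 members (Gata2, Hlf and Erg, whose sign turned with the scaling) were lower against 55.2%. With so few members these shares describe the 7 genes only. The median log2 difference was 0.10 over the 7 members and -0.07 over all measured genes. With Mecom at its bound the median over 8 members was 0.17.

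**Figure D1:**
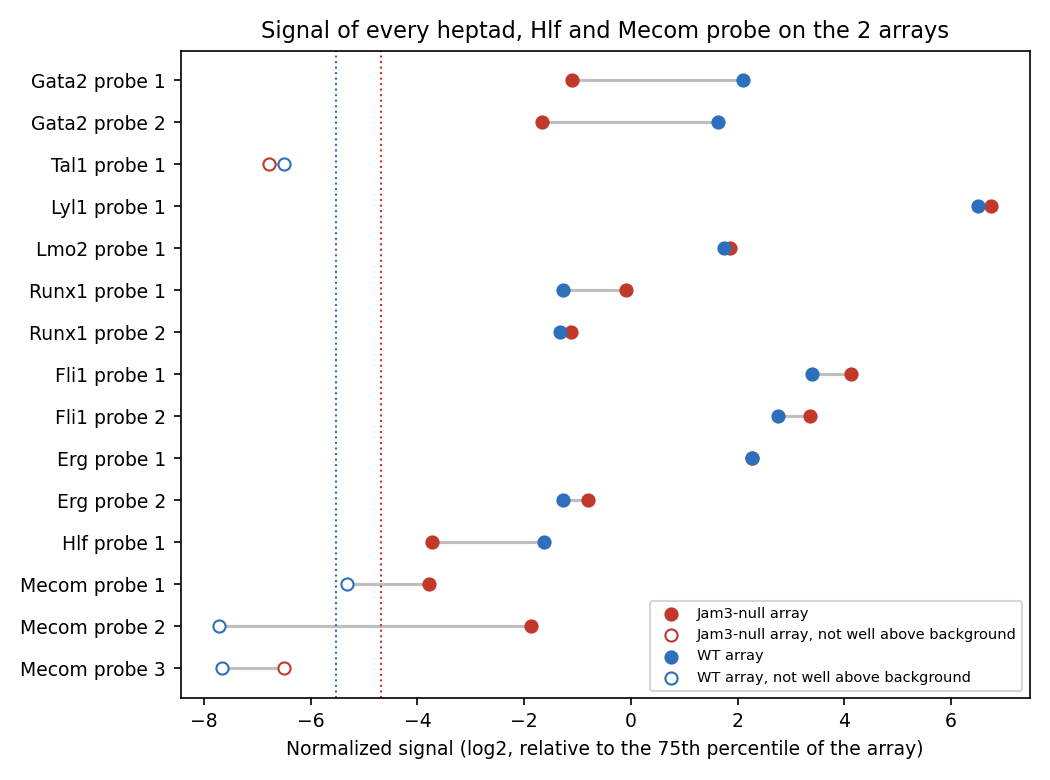
Normalized log2 signal of each of the 15 probes (rows) on the Jam3-null array (red) and the WT array (blue); open circles are not well above background, dotted lines mark the lowest signal well above background on each array (-4.69 and -5.53), and the signal of one probe is not comparable with that of another. Both Gata2 probes and the Hlf probe lie lower on the Jam3-null array, 2 Mecom probes are filled on the Jam3-null array only, and the single Tal1 probe is open on both.

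Gata2, the GATA factor of stem, progenitor and mast cells, had the largest difference among the measured members. Its 2 probes, both listed for the same RefSeq transcript, lie on the plus strand of chromosome 6 of mm9, at 88156835 to 88156894 and at 88156362 to 88156421. The first had a processed signal of 309 (error 31.6) in Jam3-null cells and 3064 (error 306) in WT cells, and the second had 212 (error 21.9) and 2203 (error 220.3). Both probes were thus bright on the WT array and far dimmer, though still detected, on the other. The log2 differences were -3.21 (error-model SD 0.21) and -3.28 (0.21), or 9.27-fold and 9.72-fold lower on the Jam3-null array. The probes differed by 0.07, less than the error-model SD of 0.29 of that gap. Among 3458 genes with 2 probes measured on both arrays the median gap was 0.21. Of the 14361 measured genes, 64 had a more negative difference than the first Gata2 probe. Over the 11 settings that gave a value, the log2 difference of the gene lay between -3.31 and -2.91. In a bulk sample of sorted cells, fewer cells that express a gene and less RNA per cell cannot be told apart.

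RefSeq lists 2 transcription starts for Gata2. The 250 bases before each start (GRCm38.p6, plus strand) are shown because Gata2 had the largest difference among the members measured on both arrays. They were searched for motifs of the heptad and HLF families, which capitals would mark. The motifs searched, on both strands, were the E-box CANNTG, the GATA motif GATAA, the ETS motif GGAAG, the RUNX motif TGTGGT and the PAR bZIP motif TTACGTAA. Among 32851 such windows of RefSeq starts 66.2% hold the E-box, 22.6% GATAA, 64.1% GGAAG, 14.0% TGTGGT and 0.113% TTACGTAA.
Gata2 first start, chr6:88193641-88193890: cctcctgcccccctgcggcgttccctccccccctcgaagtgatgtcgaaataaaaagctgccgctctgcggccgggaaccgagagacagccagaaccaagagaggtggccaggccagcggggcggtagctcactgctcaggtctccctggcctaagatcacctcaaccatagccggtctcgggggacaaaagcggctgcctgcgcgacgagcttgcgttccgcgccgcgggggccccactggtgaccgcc
Gata2 second start, chr6:88198414-88198663: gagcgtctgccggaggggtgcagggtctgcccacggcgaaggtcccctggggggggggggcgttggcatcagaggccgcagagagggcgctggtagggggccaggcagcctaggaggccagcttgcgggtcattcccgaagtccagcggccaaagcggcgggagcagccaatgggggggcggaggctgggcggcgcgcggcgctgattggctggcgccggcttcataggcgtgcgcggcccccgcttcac
Neither Gata2 window holds any of these letters, which says nothing of binding elsewhere in the locus or of other forms of the motifs. The windows are rich in G and C, at 67.2% and 74.0%.

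Hlf was read by 1 probe, on chromosome 11 of mm9 at 90199978 to 90200037 on the minus strand. Its processed signal was 50.4 (error 7.62) in Jam3-null cells and 230.4 (error 23.3) in WT cells. The gene was dim on both arrays, and dimmer on the Jam3-null array. The log2 difference was -2.10 (error-model SD 0.26), or 4.27-fold lower, and 216 of the measured genes had a more negative one. After normexp background correction, which adds an offset of 50 and so draws the differences of dim genes towards 0, the log2 difference was -1.17, or 2.24-fold lower. It lay between -2.20 and -2.00 under the other settings that kept it, and only the filter for brighter genes dropped it. The 250 bases before the single RefSeq start (GRCm38.p6, minus strand) hold 1 E-box and 1 GGAAG match, marked by capitals, and no match to TTACGTAA, the site of the factor's own family.
Hlf start, chr11:90390918-90391167: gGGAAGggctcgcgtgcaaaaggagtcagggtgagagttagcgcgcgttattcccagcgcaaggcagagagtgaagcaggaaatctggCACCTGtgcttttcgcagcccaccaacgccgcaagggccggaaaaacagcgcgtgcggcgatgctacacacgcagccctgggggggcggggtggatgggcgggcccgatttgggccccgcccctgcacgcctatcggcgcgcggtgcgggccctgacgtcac
An E-box is found in 66.2% and GGAAG in 64.1% of all such windows.

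Mecom was higher on the Jam3-null array. It was read by 3 probes on the minus strand of chromosome 3 (mm9). The first, at 29876185 to 29876244, and the second, at 29850924 to 29850983, are listed for 1 RefSeq transcript variant of the locus, and the third, at 30135688 to 30135747, for another. The first probe had a processed signal of 48.3 (error 8.36) in Jam3-null cells and 18.0 (error 4.45) in WT cells. The second probe had 183 (error 19.2) and 3.40 (error 3.38). Both passed the background call in Jam3-null cells and failed it in WT cells, where the error of the second probe was as large as its signal. The third probe, with 7.34 and 3.55, passed on neither array. A gene seen on 1 array has only a bound, taken against whichever is higher on the other array: the probe's own signal or the lowest signal that passed the background call. For the first probe the WT signal of 18.0 was above the lowest passing signal of 15.4, so its bound is its plain difference. That was 1.52 in log2, or 2.87-fold higher on the Jam3-null array. Its error-model SD was 0.44, and 2 SDs below it lay at 0.65, so 2.87-fold is not a minimum. The second probe had a log2 bound of 3.66, or 12.7-fold higher. That bound was taken against the lowest passing WT signal, without allowance for error, so it is not a strict minimum either. Of the 488 genes seen on the Jam3-null array only, 96.9% had a bound of at least 2-fold, 330 had a larger bound than the first probe and 50 a larger one than the second. After normexp correction the bounds were 1.37-fold and 3.69-fold, so the first probe no longer passed 2-fold. The first and second probes gave the same direction and unlike sizes.

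The sequences that bear on this are the first probe, as designed on the array, and the 250 bases before each of the 2 starts that RefSeq lists (GRCm38.p6, minus strand). In the probe, capitals mark all 60 bases, which read without a stop in 1 of the 3 forward frames.
Mecom first probe, chr3:29876185-29876244 (mm9): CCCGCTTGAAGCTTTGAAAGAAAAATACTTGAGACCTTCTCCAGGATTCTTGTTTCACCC
Mecom first start, chr3:30509760-30510009: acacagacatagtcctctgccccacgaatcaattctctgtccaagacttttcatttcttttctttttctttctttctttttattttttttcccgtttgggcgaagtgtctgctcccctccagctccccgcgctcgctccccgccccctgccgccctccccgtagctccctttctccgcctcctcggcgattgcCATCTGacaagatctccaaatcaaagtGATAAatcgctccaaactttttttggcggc
Mecom second start, chr3:30013205-30013454: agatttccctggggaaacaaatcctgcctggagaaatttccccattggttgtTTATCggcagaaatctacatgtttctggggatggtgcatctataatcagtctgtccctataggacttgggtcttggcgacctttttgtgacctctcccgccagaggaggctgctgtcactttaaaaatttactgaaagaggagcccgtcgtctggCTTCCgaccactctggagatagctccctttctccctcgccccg
In the windows, capitals mark matches. The upstream window has 1 E-box and 1 GATA motif, and the downstream window has 1 GATA motif and 1 ETS motif, where a match on the other strand is printed as its reverse complement. The GATA motif occurs in 22.6% of all windows, and its presence in both is a description of these letters and not of a bound site.

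Runx1, the DNA-binding partner of CBFB, gave unlike differences by its 2 probes. The first probe, on chromosome 16 of mm9 at 92604413 to 92604472 (minus strand), is listed for 4 RefSeq transcripts of the gene and had processed signals of 628 (error 63.1) in Jam3-null cells and 295 (error 29.7) in WT cells. The other spans 92614003 to 92644455, a stretch of 30453 bases on the genome for a probe of 60, so it crosses at least 1 intron. It is listed for 2 RefSeq transcripts and had 306 (error 31.1) and 284 (error 28.6). The first probe was brighter in Jam3-null cells, and the second was nearly as bright in both. The log2 difference was 1.19 (error-model SD 0.21), or 2.28-fold higher, for the first and 0.20 (0.21) for the second. They differ by 0.98, with an error-model SD of 0.29, a gap reached by 6.39% of the 3458 genes with 2 measured probes. The mean of the probes was 0.69, under 2-fold, so the call of Runx1 as higher rests on 1 probe. Of the measured genes 1157 had a larger positive difference than the first probe.
Runx1 probe across an exon junction, chr16:92614003-92644455 (mm9): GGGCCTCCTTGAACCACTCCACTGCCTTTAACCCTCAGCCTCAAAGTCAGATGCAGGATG
This probe is shown because it is the one that did not differ by 2-fold, and capitals mark all of its bases. It reads without a stop in 1 forward frame.

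The ETS factors of the heptad differed by less than 2-fold. Fli1 had processed signals of 11670 in Jam3-null cells and 7477 in WT cells by the probe on chromosome 9 (mm9) at 32231283 to 32231342, and 6811 and 4863 by the probe at 32229857 to 32229916. Both probes were brighter on the Jam3-null array. Their log2 differences were 0.74 (error-model SD 0.20) and 0.58 (0.20), or 1.67-fold higher by the first, each beyond 2 error-model SDs of 0 and under 2-fold. Erg, its close relative, was read on chromosome 16 (mm9) at 95581243 to 95581302 and at 95581956 to 95582015. The first Erg probe had 3216 (Jam3-null) and 3447 (WT), and the second had 382 and 296. The first gave a log2 difference of -0.0038 (0.20) and the second 0.47 (0.21). The sign of the first Erg probe depended on the scaling, from -0.10 with spike-in scaling to 0.13 with cyclic loess, whereas the second was higher on the Jam3-null array under each correction and scaling tried.

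Lyl1, the helix-loop-helix factor closest to TAL1, was bright on both arrays, with processed signals of 72080 (error 7208) in Jam3-null cells and 65331 (error 6533) in WT cells. Its probe lies on chromosome 8 (mm9) at 87228531 to 87228590. The log2 difference was 0.24 (error-model SD 0.20), from 0.14 with spike-in scaling to 0.50 with cyclic loess. Tal1 was read by 1 probe, on chromosome 4 at 114744223 to 114744283, with processed signals of 6.10 and 7.84, which failed the background call on both arrays, and no fold is given. That probe is listed for 0 RefSeq and 0 Ensembl transcripts. Lmo2, the bridging protein, had 2416 (error 242) and 2408 (error 241) by a probe on chromosome 2 that spans 103816341 to 103821054. Its log2 difference was 0.10 (0.20), and the sign turned with spike-in scaling, at -0.00028.
Lmo2 probe across an exon junction, chr2:103816341-103821054 (mm9): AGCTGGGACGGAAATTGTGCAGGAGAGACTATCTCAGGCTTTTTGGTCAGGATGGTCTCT
It is shown, in capitals throughout, because its signals were nearly equal on the arrays, and it is listed for 4 RefSeq transcripts.

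**Figure D2:**
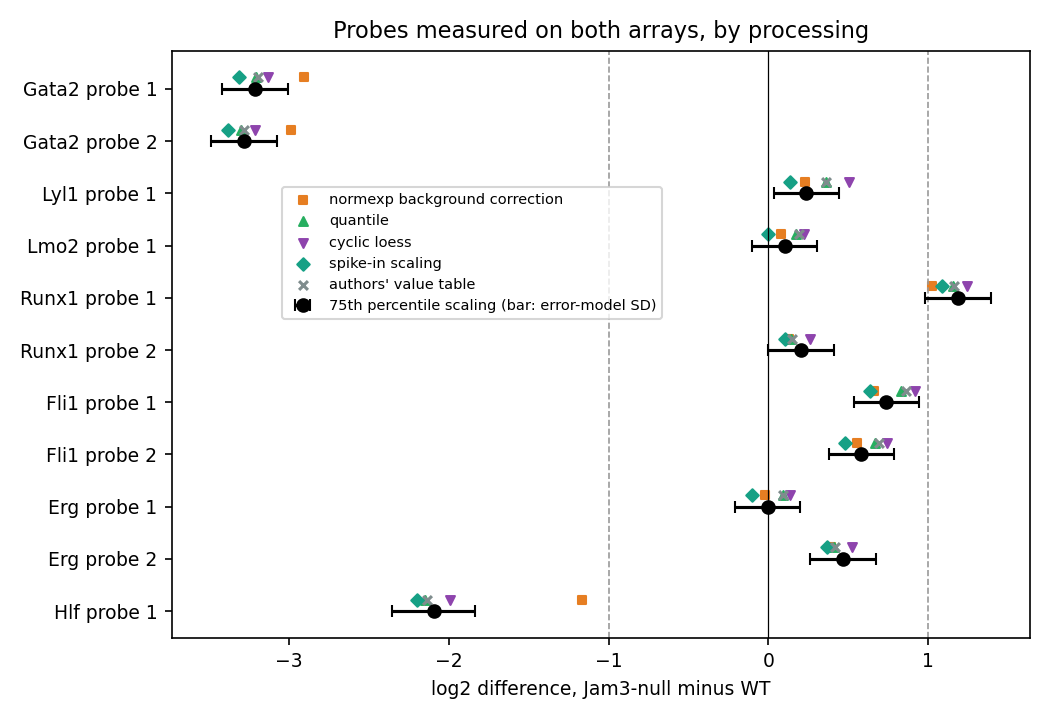
log2 difference (Jam3-null minus WT) of the 11 member probes measured on both arrays; black points are the 75th percentile scaling with the error-model SD as bars, coloured symbols are other corrections and scalings, and dashed lines mark 2-fold. Gata2 and Hlf lie left of the dashed line in every setting shown, the Hlf probe moves to -1.17 with normexp correction, and the 2 Runx1 probes lie apart at 1.19 and 0.20.

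**Figure D3:**
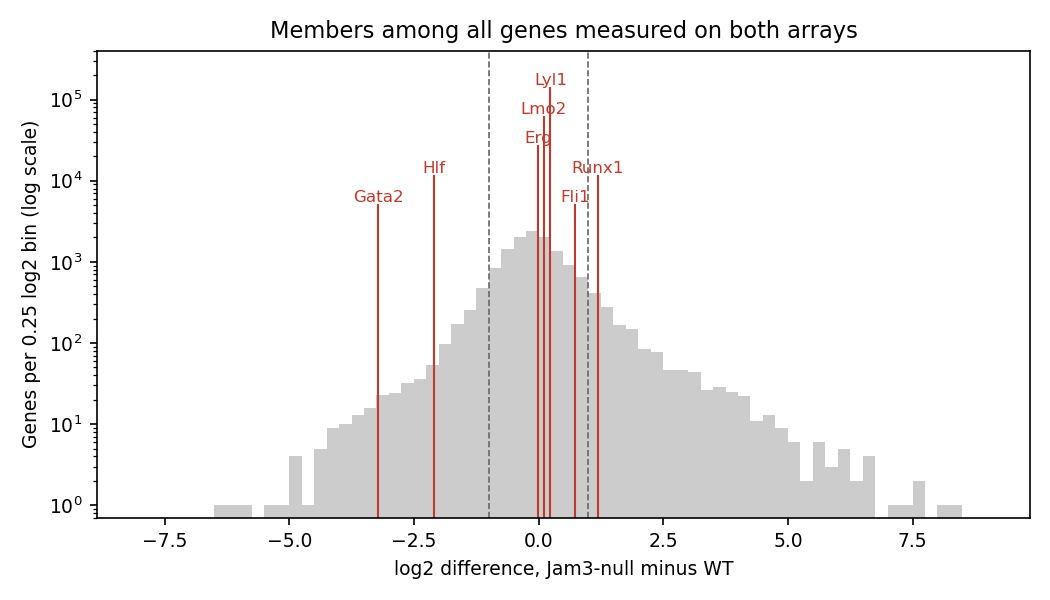
Number of genes per bin of log2 difference (log scale) for the 14361 genes measured on both arrays, with the 7 measured members as red lines at their own differences (line height has no meaning) and dashed lines at 2-fold. Gata2 lies at -3.21, with 64 genes further left, while Erg, Lmo2 and Lyl1 stand in the tallest part of the distribution.

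Genes that work with the heptad or are related to it were taken from a list of 30. On it, 26 were measured on both arrays, 4 passed 2-fold on the lower side (8.59% of all genes did) and 2 on the higher side (10.3%), with a median of -0.33 against -0.07 over all genes. Zfpm1, which encodes FOG1, the cofactor of GATA factors, had processed signals of 536 (Jam3-null) and 4692 (WT), 8.19-fold lower (log2 difference -3.03, error-model SD 0.20). Gfi1b, a repressor of the erythroid and megakaryocyte lineages, had 74.9 and 761, or 9.50-fold lower (-3.25, 0.24; -2.46 after normexp correction). Each was read by a single probe and was dimmer on the Jam3-null array, in the direction of Gata2. The GATA relatives were dim: Gata1 was seen on the WT array only (15.3 and 44.7, bound -0.69), and Gata3 on neither array.

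The E proteins, which pair with TAL1 and LYL1, lay on the lower side. Tcf4 had processed signals of 2067 in Jam3-null cells and 14594 in WT cells, 6.60-fold lower (log2 difference -2.72, error-model SD 0.20), and both of its measured probes were lower. Tcf3 was at -0.50 and Tcf12 at -0.74, short of 2-fold by the probe with the highest signal. The other Tcf3 probe was past 2-fold, at -1.05. Of the 5 Tcf12 probes 4 were lower, and they lay between -0.79 and 0.21. In the bridging complex Ldb1 was at -0.19 and Ssbp3 at 0.30, while Ssbp2, which protects LDB1 from degradation, was at -1.97 (1082 and 4528; 3.91-fold lower), with its 3 measured probes between -1.97 and -0.79. Lmo4 was at 0.99 and Lmo1 at -0.45. The corepressor gene Cbfa2t3, whose product joins TAL1 complexes, was at 0.87.

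Relatives of RUNX1 lay below 0. Runx2 and Runx3 were at -0.60 and -0.70, with all measured probes lower, and Cbfb, the gene of its partner, was at 0.16 with 1 of its 2 probes lower. Among ETS genes the differences went both ways. Ets1 had processed signals of 1147 (Jam3-null) and 201.3 (WT), 6.09-fold higher (2.61, error-model SD 0.21), with its 4 probes between 2.61 and 3.66. Spi1, which encodes the myeloid factor PU.1, was 2.12-fold higher (1.08, 0.20; 0.99 after normexp correction). Ets2 was at 0.97, Etv6 at -0.61, Elf1 at -0.05 and Gabpa at -0.08. The PAR bZIP relatives of HLF, Tef and Dbp, were at -0.65 and -0.27, and Nfil3 was at -0.39. Prdm16, the relative of Mecom, was at 0.87 and was measured on both arrays (490 and 287).

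Genes regarded as targets of the heptad were taken from a second list of 25, which shares 4 genes with the first. Of them 17 were measured on both arrays, 7 passed 2-fold on the lower side (8.59% of all genes did) and 3 on the higher side (10.3%), which became 7 and 1 after normexp correction. The median was -0.07, both for these 17 genes and over all genes. The sign of that median turned with quantile normalization (0.09), cyclic loess (0.14), the authors' value table (0.08) and the stricter filter (0.02). Beside Zfpm1 and Gfi1b, the lower genes included Cd34, a progenitor surface protein, at 5740 and 65316 (10.6-fold lower), and Cpa3, a mast cell protease, at 734 and 9538 (12.2-fold lower). The survival gene Bcl2 was 7.83-fold lower with 3 of 3 probes lower, Sox4 11.6-fold (log2 difference -3.54; -2.45 after normexp correction) and the DNA methyltransferase gene Dnmt3b 2.68-fold. The higher genes were Gfi1, a myeloid repressor, 4.81-fold, Spi1, and Smad6, an inhibitor of BMP signalling, 2.25-fold (1.17; 0.88 after normexp correction). Genes seen on 1 array only were also on both sides. Itga2b and Pf4, megakaryocyte genes, had bounds of 3.75-fold and 2.24-fold lower, and Eng had one of 4.20-fold higher. After normexp correction these bounds were -0.89, -0.43 and 0.77 in log2, short of 2-fold. Kit, Hhex, Cdk6, Myb and Ikzf1 lay between -0.23 and 0.18.

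**Figure D4:**
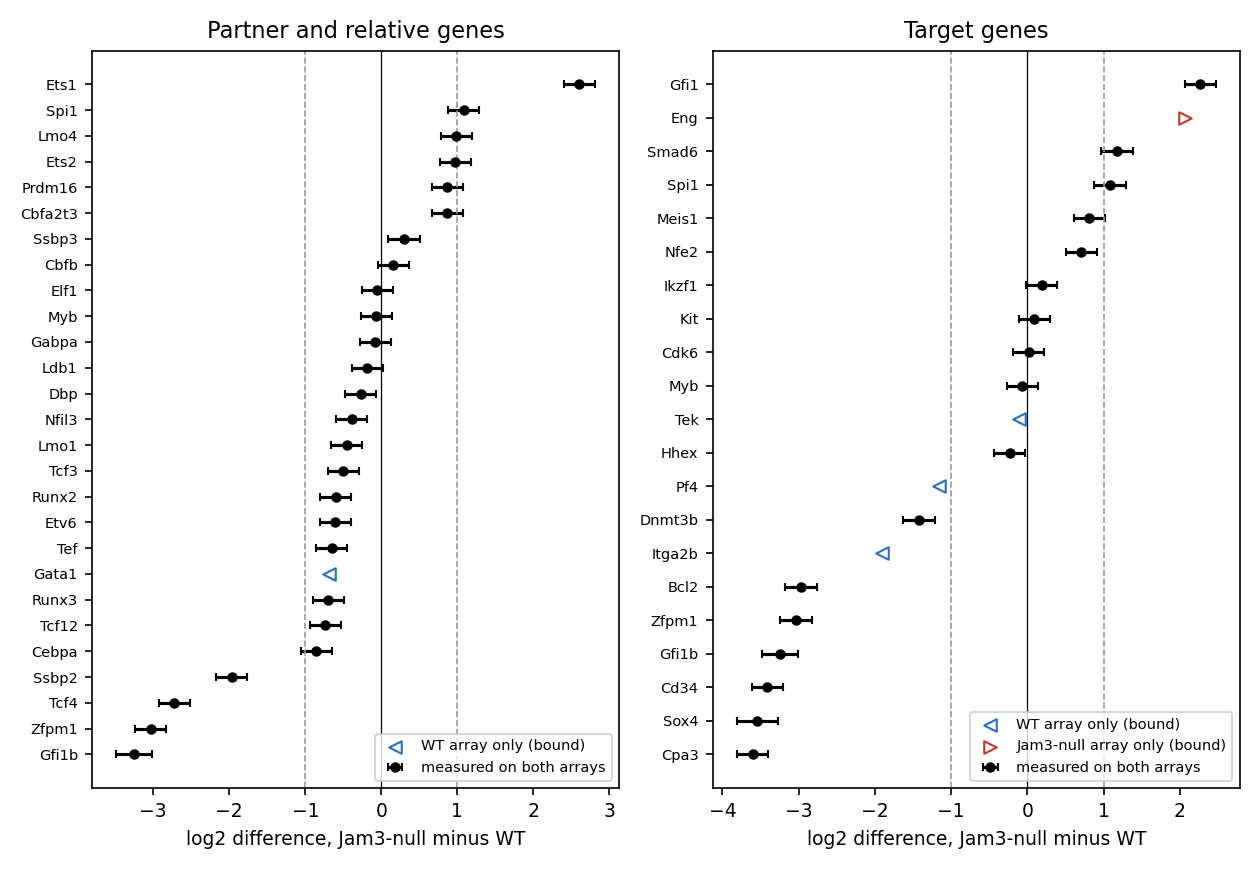
log2 difference (Jam3-null minus WT) with the error-model SD for genes of the 2 lists that were measured on both arrays, and bounds (open triangles) for genes seen on 1 array only; dashed lines mark 2-fold. Gfi1b, Zfpm1, Tcf4 and Ssbp2 stand apart on the left of the partner list and Ets1 on its right, and the target list spans -3.60 for Cpa3 to 2.27 for Gfi1.

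Several members are also expressed in other cells of the marrow, so marker lists of those cells are set beside them. The measured mast cell and basophil markers were lower, as Gata2 was. Of 10 genes 4 were measured on both arrays, all 4 at least 2-fold lower (8.59% of all measured genes were), with a median of -2.04. Another 4 were seen in WT cells only and 2 in neither. The 4 measured genes were Cpa3, Mcpt8, Hdc and Gzmb. Prss34, Cma1, Tpsb2 and Fcer1a were detected in WT cells only, and Tpsab1 and Ms4a2 were at background on both arrays. The lowest passing signal was 25.9 for Jam3-null cells and 15.4 for WT cells, so detection in WT cells only need not mean lower. Prss34 had a bound of 2.85-fold lower (1.36-fold after normexp correction) and Cma1 one of 1.41-fold lower. Tpsb2 (11.8 in Jam3-null cells, 18.0 in WT cells) had no bound. Fcer1a had none either, and its signal was higher in Jam3-null cells (28.5) than in WT cells (21.7). The summed normalized level of a list, in units of the array's 75th percentile, is set mostly by its brightest probes, and is given next to the sum without the brightest gene. For the mast cell and basophil list it was 7.498 in Jam3-null cells and 38.4 in WT cells, and 3.34 and 18.47 without Hdc. Of 9 megakaryocyte markers 2 were measured on both arrays, Gp9 at 2.08 and Gp1bb at 0.65, while 4 were seen in WT cells only and 1 in Jam3-null cells only (summed level 1.20 and 0.66, and 0.28 and 0.44 without Gp9, which turns the direction). Of the 8 erythroid markers matched on the array 3 were measured. On the lower side 0 passed 2-fold (8.59% of all measured genes did) and on the higher side 1, Hba-a1 (10.3%). Alas2 and Ahsp were detected in Jam3-null cells only, and 2 erythroid markers in WT cells only. The bounds of Alas2 and Ahsp were 9.40-fold and 5.24-fold higher (log2 3.23 and 2.39, and 1.67 and 0.87 after normexp correction). The erythroid list had a summed level of 1.44 and 0.63, and 0.73 and 0.41 without Hba-a1. Endothelial cells are another site of Erg, Fli1 and Gata2 expression. Of the 12 endothelial markers 6 were measured, 2 lower (8.59% of all measured genes were) and 1 higher (10.3%) by at least 2-fold. Tek and Esam were seen in WT cells only, and Cdh5, Kdr, Tie1 and Emcn failed the background call on both arrays. The endothelial list had a summed level of 3.03 and 4.95, and 2.08 and 2.57 without Egfl7.

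Of 12 stem and progenitor markers, 4 of the 7 measured passed 2-fold on the lower side (8.59% of all genes did) and 1 on the higher side (10.3%), with a median of -1.504. After normexp correction Angpt1 was at -0.65, the count on the lower side was 3 and the median was -0.65. The summed level was 33.6 and 112 and rested on Cd34, without which it was 25.0 and 20.8, with the direction turned. Another 4 were seen on the WT array only. Cd34, Sox4 and Meis1 are among the genes that this list shares with the target list. All 13 neutrophil maturation markers were at least 2-fold higher, where 10.3% of all measured genes were, with a median of 4.30. Their summed level was 1549 and 249, and 991 and 77.1 without S100a9. Itgam of the sort was at 3.71. The 10 B and T cell markers had 0 of 5 measured genes at least 2-fold apart, where 18.8% of all measured genes were. Their summed level was 12.0 and 16.1, and 0.35 and 0.41 without Cd79b. The part of these cells and of maturation in the member differences was not tested.

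**Figure D5:**
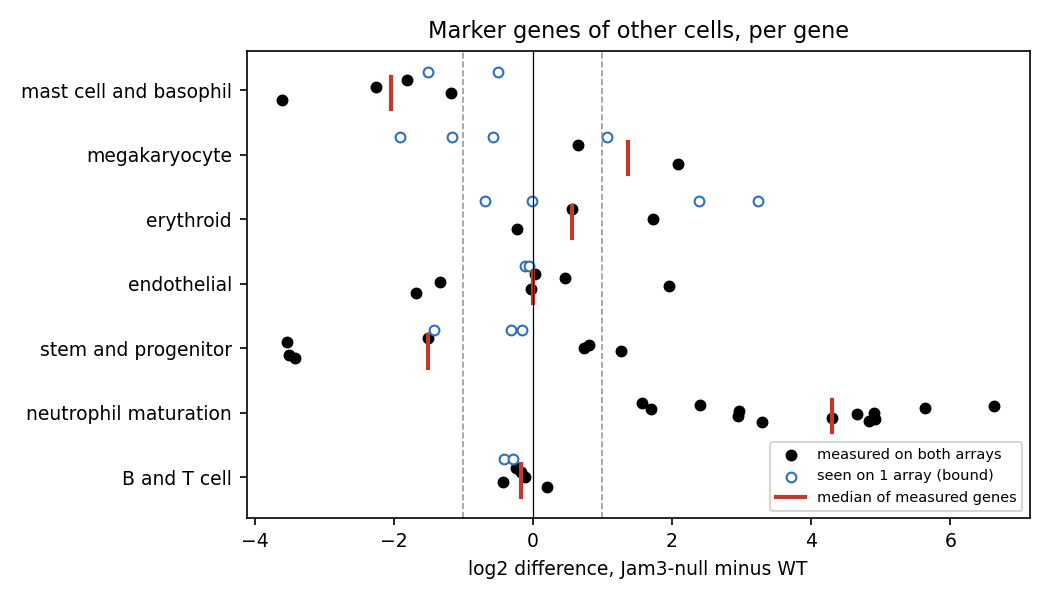
log2 difference (Jam3-null minus WT) of each marker gene (black points, measured on both arrays; open circles, bounds for genes seen on 1 array only), with the median of the measured genes in red and dashed lines at 2-fold. Measured mast cell and basophil markers all lie left of -1, neutrophil maturation markers all lie right of 1, and the other lists straddle 0 or hold few measured genes.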

How the data were processed

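Cy3-labelled RNA, made with a low-input kit per the labels' protocols, was hybridised in 1 colour. Per the file headers, Agilent Feature Extraction (version 10.7.3.1; 10.7 in the submitters' processing notes) subtracted background, detrended each array and set surrogate values for dim spots. The authors deposited these intensities on a linear scale, not normalized between arrays. The log2 values of the authors' deposited table were processed by the authors with a normalization not given in the sources used here (column medians 5.66 and 5.66); the table served as an alternative. Members and lists were chosen with earlier results of these data known.

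Flagged outlier spots were left out (151 and 163), and 0 were saturated. From log2 processed signal, each array's 75th percentile of non-control spots (667.8 and 713.9) was subtracted, values were averaged per probe, and a gene took its probe with the highest mean log2 signal. Genes counted as measured when that probe passed the background call on each array. Probes were named through RefSeq GRCm38.p6 (27662 by accession, 471 by older symbol, 13032 by the file). Probe coordinates are on mm9. RefSeq promoter windows matched 7 of 9 members. Every member probe was printed in 1 spot. All member probes, genes of the partner and target lists at least 2-fold apart or with a bound of at least 2-fold, Kit, Itgam, Ptprc and Jam3 were named by rule; other genes of these lists and of the marker lists were named after their values were seen. Marker sums without the brightest gene were added after seeing the data. The gene steps were tested on simulated data. Alternatives covered normexp correction (limma 3.58.1, R 4.3.3), scalings, probe filters, probe choice and fold thresholds. Python 3.11.15 and pandas 2.3.3 did the rest.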

Additional observations from a re-analysis of the deposited data

How the results depend on the processing

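No paired analysis was possible because each genotype has 1 array. For the same reason no array could be left out. The count of members at least 2-fold lower was 2 in every setting except the filter for genes brighter than the median measured gene, where it was 1, since Hlf was dropped. The count at least 2-fold higher was 1 in the settings other than these: 2 with no filter on dim probes, 0 with the filter for brighter genes, 0 with the mean of a gene's probes, 2 at a 1.5-fold threshold and 0 at a 3-fold threshold. Over all genes the number at least 2-fold apart was 2707, and it was 5746 with no filter on dim probes, 1088 with brighter genes only, 5564 at 1.5-fold and 1130 at 3-fold. Those filters change how many genes are compared (27337 and 7180). The median of the target list was -0.07 and became 0.14 with cyclic loess. The median of the members stayed between -0.00028 and 0.23, and the partner list stayed negative, from -0.43 to -0.20. The differences past 2-fold of members and of genes named from the partner and target lists kept their sign in the settings that gave them a value. Low signal over background leaves Mecom with a bound and Tal1 with no fold. The authors' value table gave the same 2 lower members and 1 higher member.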
